A study of Mus musculus with 4 samples.

Results

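The enzymes described here are those of glycolysis, of the entry of pyruvate into the tricarboxylic acid (TCA) cycle and of that cycle itself. They were chosen by name from a list of 39 symbols, and 38 of them had spots on the array, out of 24164 gene symbols with a value. The missing symbol, Pkm2, is an older name of Pkm, which was measured. The 38 genes fell into 17 of glycolysis, 5 of pyruvate entry and 16 of the TCA cycle. RNA immunoprecipitation (RIP) recovers the RNA that comes down with an antibody, and a non-specific IgG pull-down serves as its background. The antibodies were CPEB2 IgG and control IgG, each incubated for 3 h with lysate of cortex and hippocampus from 8-week-old male C57BL/6 mice. There were 2 arrays for each antibody, which formed 2 experiments because each lysate was split between antibodies, and no source used here states how many mice went into a lysate. The labels name no allele or treatment of the mice, so the comparison is between antibodies and not between genotypes. The description of both CPEB2 IgG arrays mentions CPEB3 IgG, but title and protocol give CPEB2, which was followed.

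Glycolysis breaks glucose down to pyruvate in the cytosol and yields ATP, and lactate dehydrogenase converts pyruvate to lactate and back. The pyruvate dehydrogenase complex turns pyruvate into acetyl-CoA, which the TCA cycle oxidises in the mitochondrial matrix. Neurons depend on this oxidation for most of their ATP, and astrocytes are known for a high rate of glycolysis. CPEB2 is an RNA-binding protein that recognises the cytoplasmic polyadenylation element (CPE), a U-rich motif of the 3′ end of mRNAs. The study used Gapdh mRNA, which encodes a glycolytic enzyme, as a non-target reference in its RT-qPCR, and the question here is whether the other enzymes of its pathway behaved in the same way on the arrays.

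All 38 enzymes passed the filter on dim probes, which kept probes well above background on at least 2 of the 4 arrays, and each of their 61 probes was in fact well above background on all 4. No spot was saturated, and the share of spots well above background ranged from 68.4% to 74.1% by array. Each value below is the spot intensity of a gene's brightest probe, and each log2 fold change is CPEB2 IgG over control IgG after scaling every array to its 75th percentile, as the mean of the 2 experiments with the standard error (SE) from limma. An array was labelled from 0.2 µg of RNA whichever antibody was used, so a value is a share of the recovered RNA and not an amount per cell. Both antibodies of an experiment received the same lysate, so its cell content was common to each pair of arrays. The tissue was checked against marker genes. All 6 neuronal markers were measured, with medians of the log2 fold change of -0.25 for neuronal, -0.90 for astrocyte, 0.25 for oligodendrocyte and -0.63 for microglial markers, and of 3 liver markers Alb and Apoa1 did not pass the filter. The third, Ttr, which brain makes in the choroid plexus, had signals of 6965.5 with CPEB2 IgG and 11608 with control IgG in experiment 1 but 290.7 and 289 in experiment 2, a gap between the experiments that both antibodies shared. Of 6 neuronal markers 2 were lower, and of 5 astrocyte markers 3 were lower and 1 higher, from -3.77 for Aldh1l1 to 3.44 for Slc1a3. Of 5 oligodendrocyte markers 2 were lower, and of 5 microglial markers 2 were lower and 1 higher. Among all genes tested 20.4% were lower and 21.2% higher. The 3 endothelial markers were measured and did not pass the test. All 3 muscle markers passed the filter, and Acta1 was lower at -1.29, with 245 and 236 with CPEB2 IgG against 565 and 659 with control IgG. The part of cell types in the values of the enzymes was not tested.

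The probes that carry the main contrasts are shown first, because enzymes with several probes gave different values along the same transcript. The array annotation places each 60-base probe on mouse build mm9 and gives its first base within the transcript. The stretches below are 30 bases of the probe in mRNA sense, 5′ to 3′. Capitals mark the polyadenylation signal AATAAA, or the CPE (TTTTAT or TTTTAAT), where the probe holds one, and stretches with no capitals are the first 30 bases of probes that hold neither.
Gapdh, base 156, chr6:125113312-125113371, minus strand: ttgacctcaactacatggtctacatgttcc
Gapdh, base 1164, chr6:125111878-125111937, minus strand: ttcttttgaataccatcAATAAAtttcgct
Gapdh, base 1175, chrX:12902948-12903007, minus strand: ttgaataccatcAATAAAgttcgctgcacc
Pfkp, base 2138, chr13:6581718-6583872, minus strand: caaactgaaggggtcccagggcacagggaa
Pfkp, base 3922, chr13:6579124-6579183, minus strand: tttttgccagtcAATAAAcacctttggttg
Dld, base 1411, chr12:32018291-32018350, minus strand: ggtgaagattcttggacataagtcaacaga
Dld, base 1721, chr12:32016889-32016948, minus strand: aattatgaaacttctgggagatctttagta
Sucla2, base 1469, chr14:73995311-73995370, plus strand: gtgtcccttttcTTTTAATgtgtggagaat
The upstream Pfkp probe is placed over a span wider than the probe itself, as a probe across a splice junction would be. The 2 downstream Gapdh probes hold the same signal, and one of them is placed on chromosome X although RefSeq lists Gapdh on another chromosome.

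AATAAA on the sense strand was present in 15 of the 61 probes of the enzymes (24.6%) and in 14.0% of the 26710 gene probes that passed the filter. The CPE letters on the sense strand were present in 1 of the 61 probes, the Sucla2 probe shown above, and in 5.24% of all gene probes. That Sucla2 probe had a log2 fold change of -1.10. Over all gene probes, the median log2 fold change was 0.53 for the 1400 with the CPE letters and -0.17 for those without. The CPE letters are all A or T, and these probes were not matched for G and C content or position. A median of 0.52 was found over all genes tested whose probe held at most 35% G and C bases. Whether the 0.53 depends on the CPE was not tested. A match in a probe is a description of 60 bases and says nothing about the rest of the transcript, whose sequence was not used here. The sequences of other 3′ ends and the positions of coding sequences are not analysed here.

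Most of the glycolytic enzymes were lower with CPEB2 IgG than with control IgG, Gapdh among them. The question started from the lower value of Gapdh, so its place in the counts below adds no support. The enzymes were chosen with earlier results of these data known. Of 17 measured glycolytic enzymes, 14 were lower and 2 were higher at an adjusted p under 0.05 in limma, and 1 did not pass. The TCA cycle was less uniform, with 9 of 16 enzymes lower, 1 higher and 6 not past the threshold. Of the 5 enzymes of pyruvate entry, 3 were lower and 2 did not pass. Among all 19698 genes tested, 20.4% were lower and 21.2% were higher by the same test, which is the background for these counts. In all, 26 of the 38 enzymes were lower, or 68.4%, and 3 were higher, or 7.89%. Where only the 6559 genes with a mean signal above 1000 were taken, a comparison chosen after the values were seen, 24.6% were lower and 31.9% were higher. The p-values measure the spread between these arrays, and the fit leaves 1 residual degree of freedom per gene before limma's pooling of variances.

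**Figure D1:**
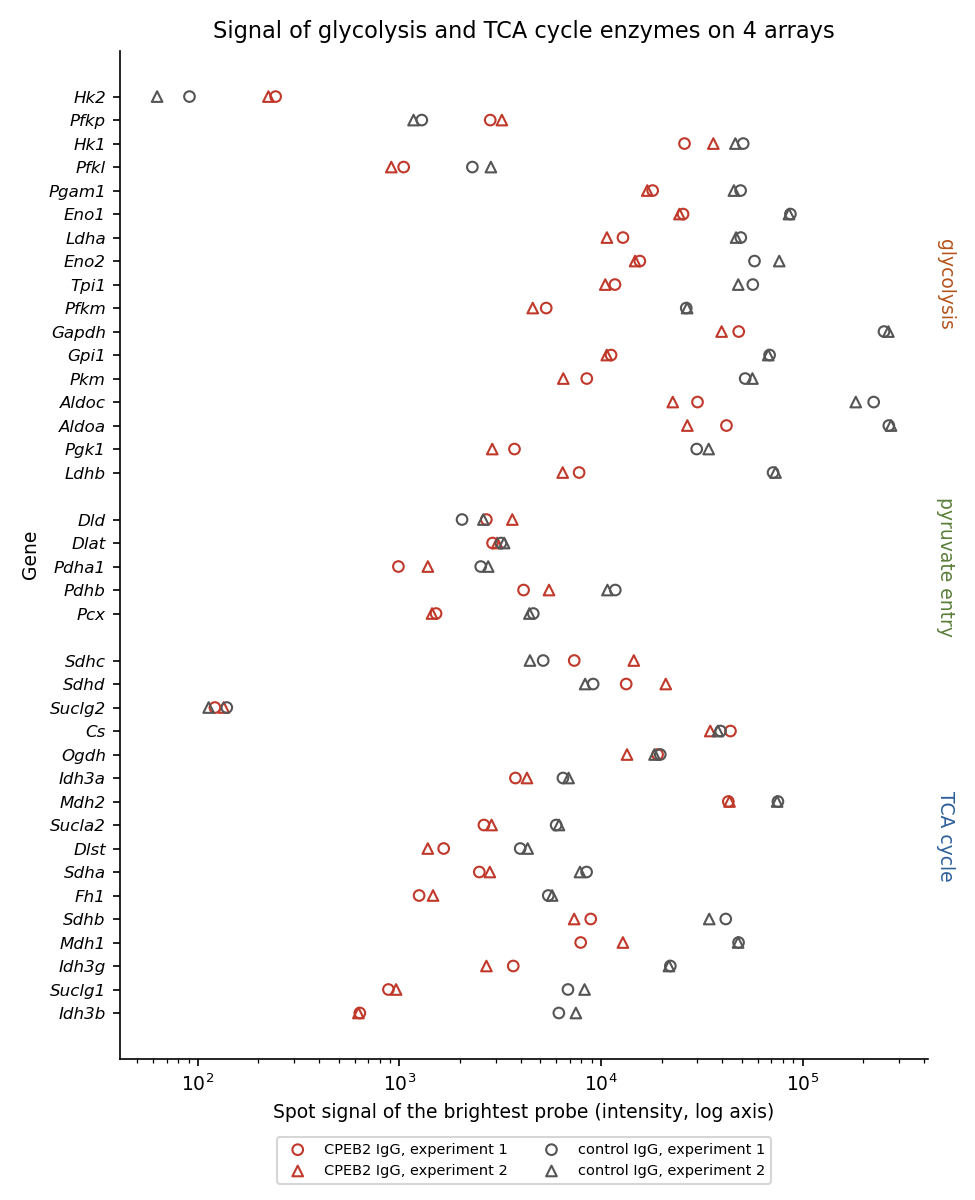
Spot signal of the brightest probe (intensity, log axis) of each enzyme on the 4 arrays, with circles for experiment 1, triangles for experiment 2, red for CPEB2 IgG and grey for control IgG. Gapdh lay at 253696 and 266689 with control IgG but at 48249.7 and 39694 with CPEB2 IgG, and Hk2, Pfkp, Dld, Sdhc and Sdhd had the higher CPEB2 IgG signal in both experiments.

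Gapdh, glyceraldehyde-3-phosphate dehydrogenase, had a signal of 48249.7 in experiment 1 and 39694 in experiment 2 with CPEB2 IgG. The control IgG arrays read 253696 and 266689. Both CPEB2 IgG arrays were thus below both control IgG arrays, and the log2 fold change was -2.52 (SE 0.25, n = 2 experiments, limma adjusted p = 0.00543), or 5.73-fold lower. Experiment 1 gave -2.31 and experiment 2 gave -2.72. Gapdh had 7 probes on the array, and all of them were below 0, from -4.02 to -2.52, so the brightest probe used here was the one with the smallest change. The probe at -4.02 is placed on chromosome 8 and that at -2.52 on chromosome X, and those on chromosome 6 ran from -3.81 to -2.63. With the brightest of the probes placed on chromosome 6, chosen after the values were seen, the log2 fold change was -2.94. Among the 38 enzymes Gapdh ranked 10, counted from the lowest log2 fold change.

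Hexokinase, the first enzyme of glycolysis, had 2 measured isoforms with different values. Hk1, the main form in brain, had signals of 25978 and 36109 with CPEB2 IgG against 50801.5 and 46446 with control IgG. A log2 fold change of -0.61 (SE 0.26) did not pass the test (limma adjusted p = 0.126), with a 95% interval of -1.30 to 0.075. The brightest Hk1 probe is placed on chromosome 5, and the brightest of those on chromosome 10, where RefSeq lists the gene, gave -1.24 (chosen after the values were seen). Hk2, the form more typical of muscle, rose from 90.9 and 62.8 with control IgG to 243 and 224 with CPEB2 IgG. Its log2 fold change of 1.68 (SE 0.24, limma adjusted p = 0.00856) was the highest of the 38. Gpi1, which converts glucose-6-phosphate to fructose-6-phosphate, had a log2 fold change of -2.58 (SE 0.23), and its 3 probes lay between -2.62 and -2.57.

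Phosphofructokinase commits sugar to glycolysis and has a liver, a muscle and a platelet form, all of which are present in brain. Pfkl signals were 1050.25 and 912 with CPEB2 IgG against 2302 and 2845 with control IgG, a log2 fold change of -1.33 (SE 0.26, limma adjusted p = 0.0182) whose call was lost with no filter on dim probes (limma adjusted p = 0.0653). Pfkm signals were 5351 and 4589 against 26503 and 26769, a log2 fold change of -2.37 (SE 0.24, limma adjusted p = 0.00543). Both forms were lower on each CPEB2 IgG array than on either control IgG array. Pfkp went the other way at its brightest probe, with 2824 and 3225 with CPEB2 IgG against 1292 and 1176 with control IgG, a log2 fold change of 1.35 (SE 0.24, limma adjusted p = 0.0134). The second Pfkp probe, 1 of the pair shown above, had a log2 fold change of -2.48, so the direction of Pfkp depended on which of its probes was read.

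The aldolases split fructose-1,6-bisphosphate, and brain holds the general form Aldoa and the astrocyte-rich form Aldoc. Aldoa signals were 41948 and 26829 with CPEB2 IgG against 268034 and 274811 with control IgG, a log2 fold change of -2.96 (SE 0.29, limma adjusted p = 0.00543). Aldoc signals were 30139 and 22718 against 225494 and 183759, a log2 fold change of -2.91 (SE 0.23, limma adjusted p = 0.00543). The 2 aldolases therefore lay close together, each lower on both CPEB2 IgG arrays. Triose phosphate isomerase, Tpi1, which interconverts the products of aldolase, had a log2 fold change of -2.18 (SE 0.23).

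In the steps that yield ATP, phosphoglycerate kinase (Pgk1) fell from 29858 and 34249 with control IgG to 3725 and 2889.6 with CPEB2 IgG. Its log2 fold change was -3.23 (SE 0.27, limma adjusted p = 0.00543), and its other probe gave -3.26. Pyruvate kinase (Pkm), which makes pyruvate, had a log2 fold change of -2.81 (SE 0.26), and Pgam1, a phosphoglycerate mutase, had -1.39 (SE 0.23). All of these passed the threshold.

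Enolase makes phosphoenolpyruvate, and Eno2 is its neuronal form. Eno1 signals were 25550.5 and 24522 with CPEB2 IgG against 87105 and 85696 with control IgG, a log2 fold change of -1.73 (SE 0.23, limma adjusted p = 0.00729). Eno2 signals were 15594 and 14773 against 57783 and 76674, a log2 fold change of -2.08 (SE 0.26, limma adjusted p = 0.00677). Both enolases fell in both experiments. The brightest probes of Gapdh, Hk1, Pgk1 and Eno1 are placed on a chromosome other than the one RefSeq lists for the gene, and their signal may be shared with near-identical copies, whereas the placement matched RefSeq for the other 34 enzymes.

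Lactate dehydrogenase subunits were both lower. Ldha, the form favoured in lactate-producing cells, had signals of 12860.3 and 10705 with CPEB2 IgG against 49414 and 46824 with control IgG, a log2 fold change of -1.98 (SE 0.24, limma adjusted p = 0.00631). Ldhb, the form favoured in lactate-consuming cells such as neurons, had 7794 and 6461 against 71453 and 73462, a log2 fold change of -3.30 (SE 0.24, limma adjusted p = 0.00543). Ldhb was the lowest of the glycolytic enzymes, at 9.84-fold lower. The 95% intervals of the 2 genes were -2.60 to -1.36 for Ldha and -3.94 to -2.66 for Ldhb, and a difference between them was not tested.

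**Figure D2:**
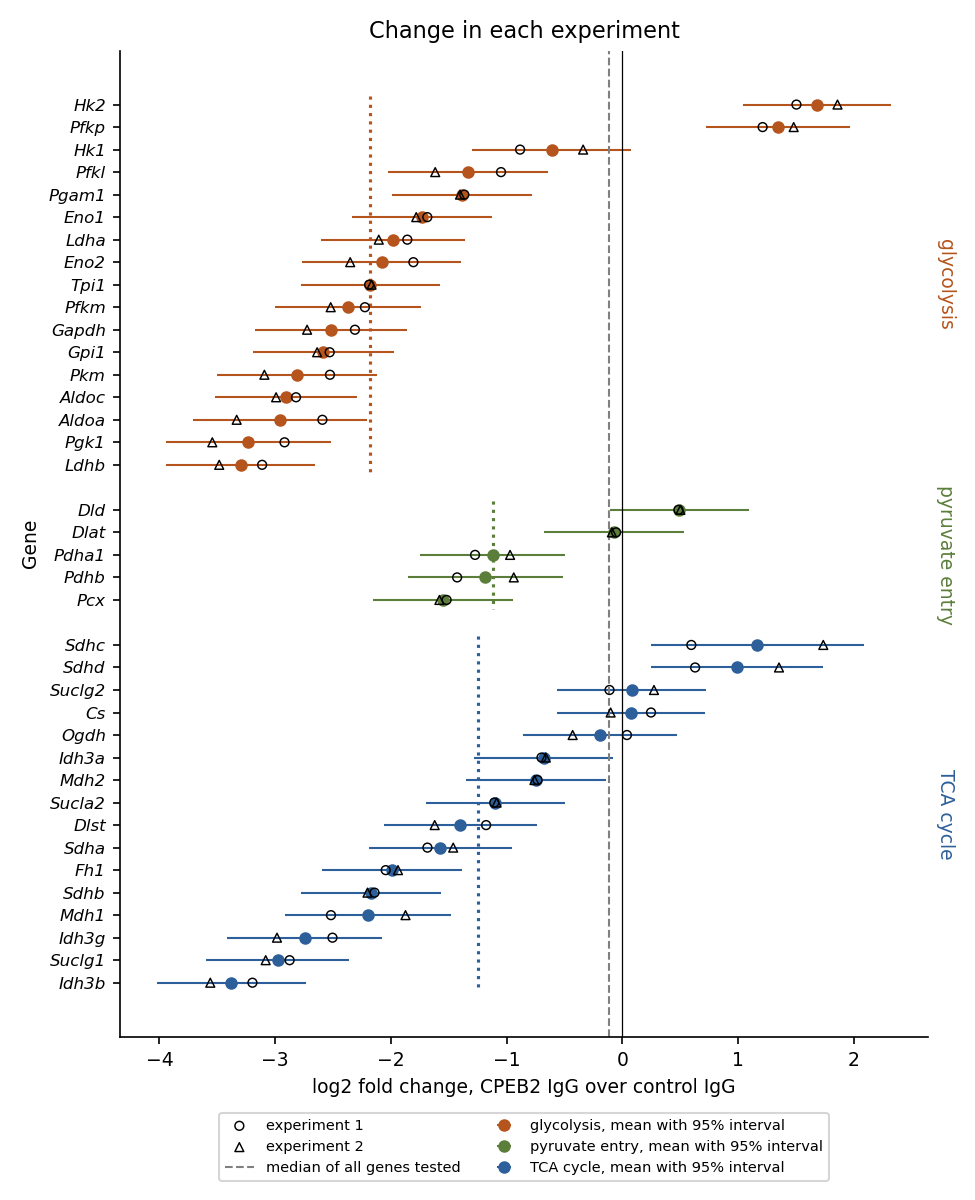
Log2 fold change of each enzyme, CPEB2 IgG over control IgG, with filled points for the mean of 2 experiments, bars for limma's 95% interval and open circles and triangles for experiments 1 and 2. Dotted lines are the medians of glycolysis (-2.18), pyruvate entry (-1.12) and the TCA cycle (-1.25), and the dashed line is the median of all genes tested (-0.11).

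Pyruvate carboxylase (Pcx), an astrocyte-rich enzyme that refills the TCA cycle with oxaloacetate, had a log2 fold change of -1.55 (SE 0.23, limma adjusted p = 0.00891). The 2 subunits of the first enzyme of the pyruvate dehydrogenase complex were lower as well, with log2 fold changes of -1.12 (SE 0.24, limma adjusted p = 0.0220) for Pdha1 and -1.18 (SE 0.26, limma adjusted p = 0.0226) for Pdhb. Both calls were lost with no filter on dim probes (limma adjusted p = 0.0610 and 0.0695), that of Pdha1 also with spike-in scaling (-0.998, limma adjusted p = 0.0601) and that of Pdhb with the mean of the probes (-0.78, limma adjusted p = 0.0729). Dlat and Dld of the same complex did not pass the test, nor did Pdhx, its binding protein for Dld, at 0.046. Dlat, its acetyltransferase, had signals of 2899 and 3057 with CPEB2 IgG against 3190.07 and 3309 with control IgG, a log2 fold change of -0.073 with a 95% interval of -0.68 to 0.53 (limma adjusted p = 0.822). Dld, the lipoamide dehydrogenase shared with the 2-oxoglutarate dehydrogenase complex, had 2701 and 3634 against 2046 and 2611, a log2 fold change of 0.49 with a 95% interval of -0.11 to 1.094 (limma adjusted p = 0.151). The other Dld probe, shown above, gave -1.08.

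Citrate synthase (Cs), which opens the TCA cycle, had a log2 fold change of 0.072 with a 95% interval of -0.57 to 0.71 (limma adjusted p = 0.833). Its signals were 43911 and 34869 with CPEB2 IgG against 39206 and 38045 with control IgG, so the antibodies overlapped. The subunits of the NAD-dependent isocitrate dehydrogenase differed in size of change. Idh3b fell from 6183 and 7512 with control IgG to 636 and 626 with CPEB2 IgG, a log2 fold change of -3.38 (SE 0.24, limma adjusted p = 0.00543), the lowest of all 38 enzymes and 10.4-fold lower. Idh3g had -2.75 (SE 0.25, limma adjusted p = 0.00543). Idh3a, the catalytic subunit, had -0.68 (SE 0.23) and did not pass (limma adjusted p = 0.0719). The 95% interval of Idh3a, -1.28 to -0.078, did not overlap those of Idh3b, -4.02 to -2.74, and Idh3g, -3.41 to -2.08. Each of these subunits was read by 1 probe, and a difference between them was not tested.

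In the 2-oxoglutarate dehydrogenase complex, Dlst, its succinyltransferase, was lower at -1.40 (SE 0.25, limma adjusted p = 0.0140), a call lost with no filter on dim probes (limma adjusted p = 0.0548). Ogdh, its first enzyme, had -0.20 with a 95% interval of -0.86 to 0.47 (limma adjusted p = 0.575), and its 3 probes ran from -0.70 to 0.60. Succinyl-CoA ligase joins the shared subunit Suclg1 to an ATP-forming (Sucla2) or GTP-forming (Suclg2) partner. Suclg1 signals were 883 and 963 with CPEB2 IgG against 6862 and 8292 with control IgG, a log2 fold change of -2.98 (SE 0.23, limma adjusted p = 0.00543). Sucla2 signals were 2627 and 2867 against 5995 and 6189.9, a log2 fold change of -1.10 (SE 0.23, limma adjusted p = 0.0209), a call lost with spike-in scaling (-0.97, limma adjusted p = 0.0685) and with no filter on dim probes (limma adjusted p = 0.0545). Suclg2 signals were 122 and 134 against 139 and 113, which gave a log2 fold change of 0.080 and a 95% interval of -0.57 to 0.73 (limma adjusted p = 0.818). The signals of Suclg2 overlapped between the antibodies, and those of its partners did not.

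Succinate dehydrogenase, which is also complex II of the respiratory chain, split by subunit. The catalytic subunits of the matrix side were lower, with log2 fold changes of -1.57 (SE 0.23, limma adjusted p = 0.00907) for the flavoprotein Sdha and -2.17 (SE 0.23, limma adjusted p = 0.00562) for the iron-sulfur subunit Sdhb. The membrane anchors Sdhc and Sdhd had positive values. Sdhd signals were 13342 and 20973 with CPEB2 IgG against 9148 and 8347 with control IgG, a log2 fold change of 0.99 (SE 0.28, limma adjusted p = 0.0481), a call that was lost with the percentile taken over probes well above background on all arrays (0.88, limma adjusted p = 0.0538) and with no filter on dim probes (limma adjusted p = 0.119). Sdhc signals were 7371 and 14559 against 5170.29 and 4445, a log2 fold change of 1.16 (SE 0.35) that did not pass (limma adjusted p = 0.0539). Both anchors had the higher value in experiment 2, at 1.35 against 0.63 for Sdhd and 1.74 against 0.59 for Sdhc. The 95% intervals of the anchors, 0.24 to 1.74 for Sdhd and 0.25 to 2.08 for Sdhc, did not overlap those of Sdha, -2.19 to -0.96, and Sdhb, -2.78 to -1.57. A difference between the subunits was not tested.

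The last steps of the cycle were lower in part. Fumarase (Fh1) had a log2 fold change of -1.99 (SE 0.23, limma adjusted p = 0.00612). Mdh1, the cytosolic malate dehydrogenase of the malate-aspartate shuttle, had -2.20 (SE 0.27, limma adjusted p = 0.00663). Mdh2, its mitochondrial counterpart, had -0.75 (SE 0.23) and did not pass (limma adjusted p = 0.0569).

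Glycolysis as a whole had a median log2 fold change of -2.18, from -3.30 for Ldhb to 1.68 for Hk2, and the TCA cycle had -1.25, from -3.38 for Idh3b to 1.16 for Sdhc. The median over all genes tested was -0.11. In experiment 1 the glycolysis median was -2.19 and the TCA cycle median -1.14, a difference of -1.05, and in experiment 2 they were -2.35 and -1.27, a difference of -1.08. The difference between the medians of the 2-experiment means was -0.93. Glycolysis was thus the lower of the groups in each of the 2 experiments, but a difference between pathways was not tested. Genes are not replicates, and even with the pairing left aside 2 arrays against 2 allow no exact two-sided p below 0.333. The study's thresholds for enrichment were a fold above 1.5 and a raw signal above 1000, and it also required a CPE in the 3′ untranslated region. With the mean fold and without the CPE requirement, 3 enzymes passed upwards, Pfkp, Sdhc and Sdhd, against 16.4% of all genes tested. The study gave no threshold for lower values. With the same limits turned downwards and the signal taken from control IgG, 29 of the 38 passed, against 13.1% of all genes. These were 15 of glycolysis, 3 of pyruvate entry and 11 of the TCA cycle. A signal above 1000 was reached on at least 1 array by 36 of the 38 enzymes. Many of all genes tested were too dim for these limits. Among the 6559 genes with a mean signal above 1000, 2484 passed upwards and 2011 downwards, a comparison added after the values were seen. Hk2 stayed under the signal threshold.

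The base composition of the probes moved with the change over all genes. Over all genes tested, the log2 fold change had a median of 0.52 for probes of at most 35% G and C bases, 0.012 from there to 40%, -0.25 from there to 45% and -0.57 above. The probes of glycolytic enzymes had a median of 45% and those of the TCA cycle 40%. Within the lowest range, 5 of 9 enzymes were lower and 1 was higher, with a median of -1.18, while 8.69% of all genes there were lower. From 35% to 40%, 2 of 7 were lower and 1 was higher, with a median of -0.61, against 16.5% of all genes lower. Between 40% and 45%, 14 of 17 enzymes were lower and 1 was higher, with a median of -1.98, against 23.3% of all genes lower. All 5 enzymes above 45% were lower, against 34.98% of all genes. After centring every array within bins of G and C content, the medians were -1.76 for glycolysis and -0.98 for the TCA cycle, and Gapdh had -2.02.

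**Figure D3:**
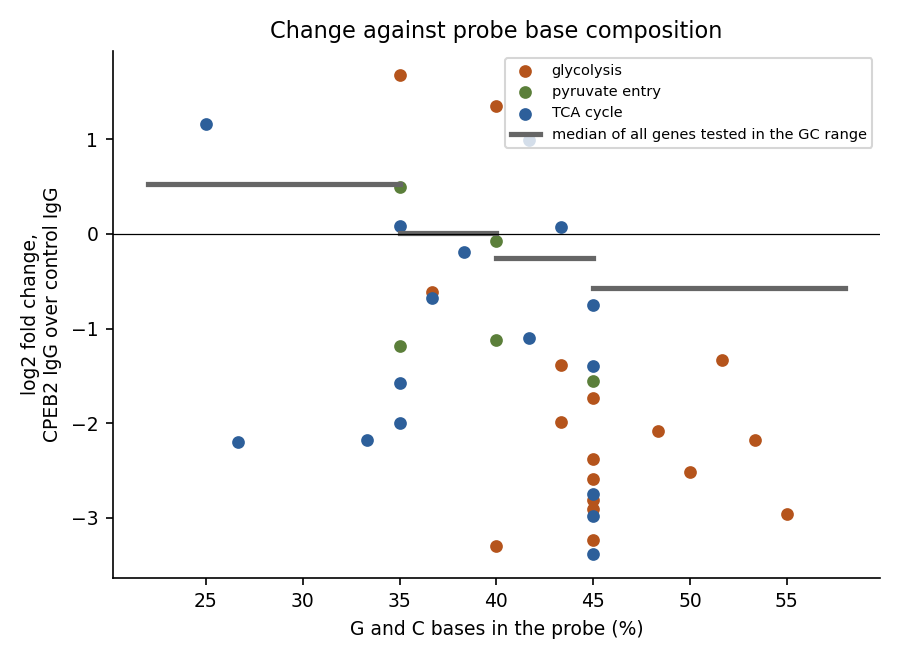
Log2 fold change of each enzyme's brightest probe against the share of G and C bases in that probe (%), colored by group, with grey bars for the median of all genes tested in each range of G and C content. Medians of all genes ran from 0.52 to -0.57, and most enzymes lay below the bar of their range.

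The position of a probe also moved with its value. Of the 13 enzymes with 2 or more probes, 10 had all probes on the same side of 0 and 3 did not, namely Pfkp, Dld and Ogdh. For 9 enzymes, probes of the same transcript started at least 100 bases apart, and in all 9 the probe nearest the 3′ end had the higher log2 fold change. The differences ran from 0.30 to 3.82 with a median of 1.06. Over all 3767 such transcripts the downstream probe was the higher one in 76.6%, with a median difference of 0.60, so the direction seen in the enzymes was common on these arrays. This comparison was chosen after the values were seen, and its pairs were not matched for G and C content. The downstream probe also held fewer G and C bases in all of the 9 enzymes but Gapdh, which had 45% upstream and 50% downstream. After centring within bins of G and C content, Sdhb had -2.15 upstream and -2.39 downstream, and Sdhc had 0.97 and 0.94. Their downstream probes were thus the lower ones, while the rest of the 9 kept the direction. The parts of position and base composition were not tested.

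For Pfkp the values were -2.48 at base 2138 and 1.35 at base 3922, which was the widest gap. For Dld they were -1.08 at base 1411 and 0.49 at base 1721. Ogdh had -0.20 at base 4104 and 0.60 at base 6503. In these 3 transcripts the sign changed between the probes. For Gapdh the values were -3.81 at base 156, -2.94 at base 1164 and -2.52 at base 1175, and for Tpi1 they were -3.61 at base 634 and -2.18 at base 1204. These remained well below 0 at both ends. Probes in between did not rise in order. Gapdh had -3.70 at base 239, -2.63 at base 391, -4.02 at base 740 (a probe placed on chromosome 8) and -3.67 at base 897. Ogdh had -0.70 at base 4176, and Ldha had -2.29 at base 351, -3.61 at base 970 and -1.98 at base 1755. In Sdhc both probes were above 0, at 0.47 and 1.16. The remaining differences were 1.06 for Hk1, 0.30 for Ldha and 0.30 for Sdhb.

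**Figure D4:**
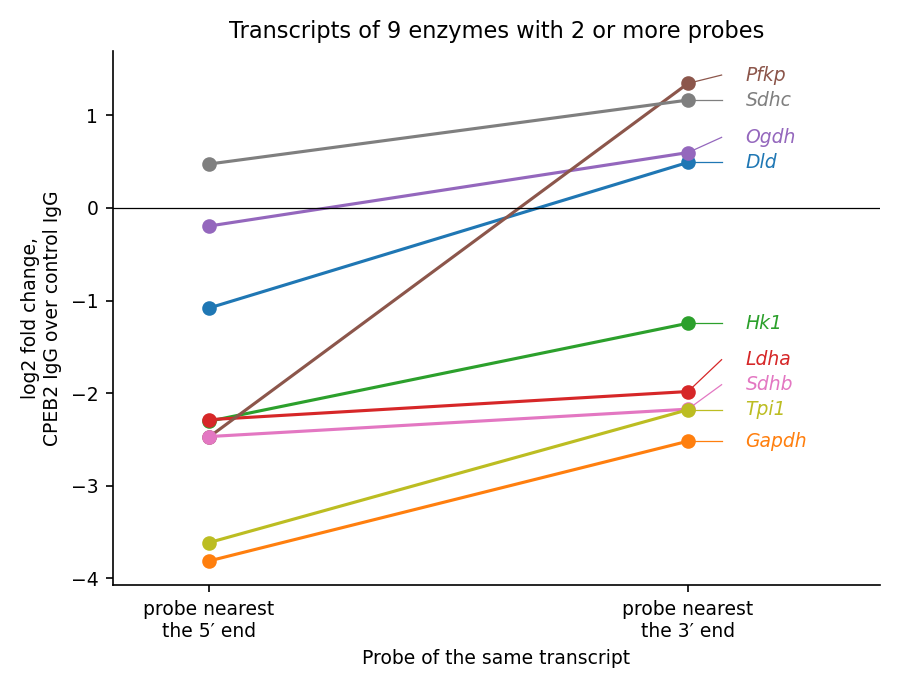
Log2 fold change (CPEB2 IgG over control IgG, mean of 2 experiments) of the probe nearest the 5′ end and the probe nearest the 3′ end of 9 enzyme transcripts whose probes start at least 100 bases apart. All 9 lines rise towards the 3′ end, and those of Pfkp, Dld and Ogdh cross 0. Probes in between are not drawn, and the values are not centred within bins of G and C content.

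Genes around these pathways were called in both directions. In a list of 32 other genes of glycolysis and glucose supply, 29 were measured, of which 7 were higher (24.1%) and 10 lower (34.5%), with a median log2 fold change of -0.66. Over all genes tested the shares were 21.2% higher and 20.4% lower, so the higher share of this list was near the background. The highest were Slc2a1, the glucose transporter of blood-brain barrier and glia, at 3.17 (SE 0.26, limma adjusted p = 0.00543), Pfkfb2, which makes an activator of phosphofructokinase, at 2.73 (SE 0.23, limma adjusted p = 0.00543), and Slc2a3, the neuronal glucose transporter, at 1.90 (SE 0.23, limma adjusted p = 0.00638). Slc2a1 signals were 5892 and 6042 with CPEB2 IgG against 837 and 566 with control IgG. The lowest called were Pgam2, the muscle mutase, at -3.07 (SE 0.24, limma adjusted p = 0.00543), and the glycogen phosphorylases Pygb at -2.08 (SE 0.25, limma adjusted p = 0.00637) and Pygm at -1.77 (SE 0.23, limma adjusted p = 0.00718).

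Genes that regulate the pyruvate dehydrogenase complex or carry pyruvate into mitochondria had a median of 0.35, and 11 of 13 were measured, with 36.4% higher and 9.09% lower against 21.2% and 20.4% of all genes. The 4 higher genes were kinases and phosphatases of the complex, of which Pdp2 had 1.32 (SE 0.24, limma adjusted p = 0.0142), Pdk1 had 1.21 (SE 0.25, limma adjusted p = 0.0211) and Pdk4 had 1.105 (SE 0.23, limma adjusted p = 0.0206). Mpc2, a subunit of the mitochondrial pyruvate carrier, was the 1 lower gene, at -1.13 (SE 0.25, limma adjusted p = 0.0229).

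All 18 genes of the list of other TCA cycle and linked enzymes were measured, and 2 were higher (11.1%) and 7 lower (38.9%), against 21.2% and 20.4% of all genes, with a median of -0.42. Glutamate dehydrogenase (Glud1), which feeds the cycle from glutamate, had 1.64 (SE 0.23, limma adjusted p = 0.00801), and the succinate dehydrogenase assembly factor Sdhaf2 had 1.35 (SE 0.28, limma adjusted p = 0.0198). The lowest were Csl, a citrate synthase-like gene, at -2.36 (SE 0.27, limma adjusted p = 0.00595), the malic enzyme Me3 at -2.33 (SE 0.23, limma adjusted p = 0.00543) and Ogdhl, a relative of Ogdh, at -2.28 (SE 0.33, limma adjusted p = 0.00834).

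**Figure D5:**
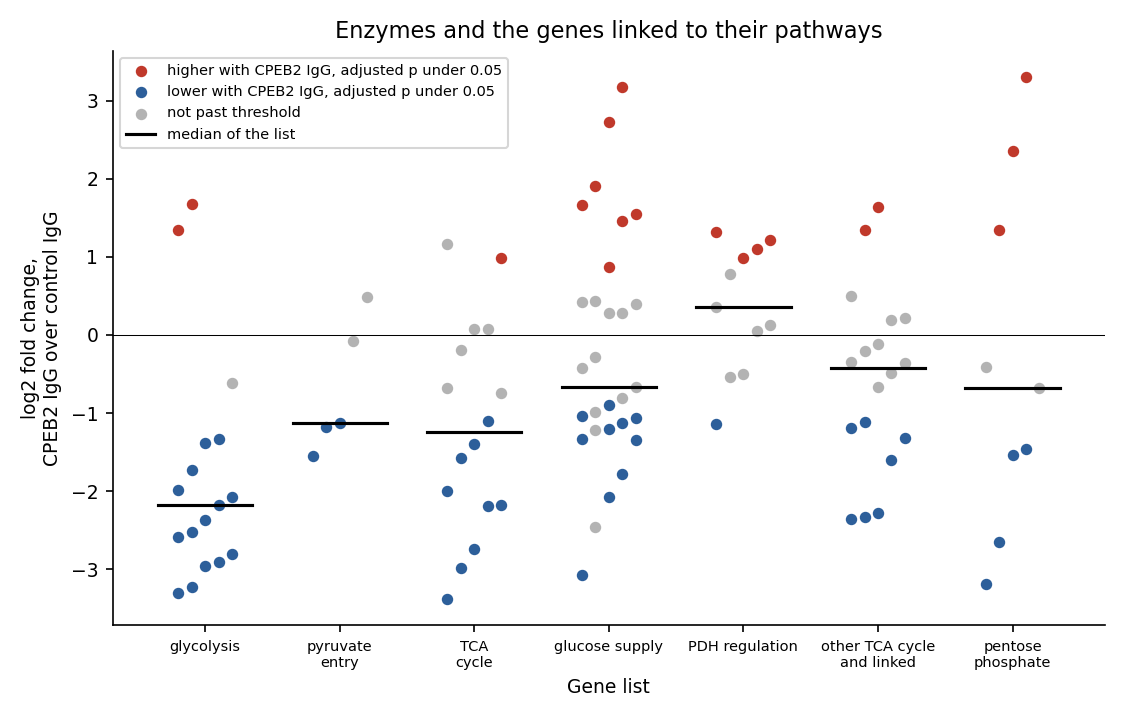
Log2 fold change (CPEB2 IgG over control IgG) of each measured gene in the 3 groups of enzymes and in 4 lists of other genes of these pathways, colored by limma call at an adjusted p under 0.05, with a black line for each list's median. Medians were -2.18 for glycolysis and -1.25 for the TCA cycle and ran from -0.68 to 0.35 in the 4 other lists (PDH, pyruvate dehydrogenase).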

How the data were processed

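RNA recovered with CPEB2 IgG or control IgG was measured on 4 one-color arrays, grouped by sample title. The authors deposited scanner output of Agilent Feature Extraction 10.5.1.1 for each array, with background-corrected spot intensity and no normalization between arrays. Probe coordinates are the annotation's, on mm9. Control spots and marked spots were left out, 66 probes without a value on every array were dropped, repeated spots were averaged, and log2 intensity was scaled to the 75th percentile of 55615 probes. The brightest probe of each of 19698 genes, well above background on at least 2 arrays, was fitted in limma 3.58.1 (R 4.3.3) with the experiment as a block and Benjamini-Hochberg adjustment, after the fit was tested on simulated data. Pairing comes from the methods, which divide each lysate between antibodies, and deviations of same-numbered arrays from their group means correlated at 0.20 over genes. Tables and figures were made in Python 3.11.15 with pandas 2.3.3 and matplotlib 3.10.9.

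The members and gene lists were chosen with earlier results of these data known. All 4 arrays sat on 1 slide, and each antibody had its own positions on it. Signals on all arrays are given for Gapdh, the 5 highest and 5 lowest enzymes, isoform sets, enzymes whose probes disagreed in sign by more than 1 log2 unit and the 3 nearest to no change. From the other lists the 3 highest and 3 lowest calls are named, while the markers were named outside that rule. Of the probe accessions, 37 of 38 were in the RefSeq table (GRCm38.p6) under the same symbol, which was used for names and chromosomes only. With 2 arrays per antibody, precision is limited by their number. The alternatives were other scalings, background correction, probe filters, probe summaries, thresholds, no block, an intensity trend and leaving out either experiment.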

Additional observations from a re-analysis of the deposited data

How the results depend on the processing

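The log2 fold change of Gapdh kept its direction and passed the threshold under every alternative with a test, from -3.33 with the mean of the probes to -2.02 with centring within bins of G and C content. Counts of lower glycolytic and TCA cycle enzymes stayed within 1.5 times those reported. Scaling shifted the median of all genes by 0.23 with median centring, 0.19 with G and C bins, 0.13 with quantile normalization, 0.12 with spike-in scaling and -0.11 with the percentile over probes well above background on all arrays. The share of higher genes among all calls was 50.9%, and 61.2% with median centring. The glycolysis median was -1.95 with quantile normalization, -1.95 with median centring, -2.05 with spike-in scaling, -1.76 with G and C bins and -2.59 with the mean of the probes. The TCA cycle median was -1.34, -1.02, -1.12 and -0.98 under the first 4 of these and -1.36 with the percentile over probes well above background on all arrays. The difference between the medians was -0.60 with quantile normalization, -0.78 with G and C bins, -0.96 with normexp, -1.34 with the mean of the probes and -1.06 with pyruvate entry counted with the TCA cycle. Leaving out an experiment gave -2.35 to -2.19 for glycolysis, -1.27 to -1.14 for the TCA cycle, -1.08 to -1.05 for their difference and -2.72 to -2.31 for Gapdh, with no test.

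Higher TCA cycle enzymes numbered 2 with quantile normalization, median centring, spike-in scaling, normexp, the intensity trend or probes well above background on all arrays, and 0 with the percentile over probes well above background or with no filter on dim probes. Higher glycolytic enzymes numbered 1 with the mean of the probes, where Pfkp reversed to -0.57 and Dld to -0.29. With no filter, 1 enzyme of pyruvate entry was lower, and 2265 genes were higher and 1837 lower. Near 0, Ogdh reversed to 0.054 with quantile normalization and 0.031 with median centring, Dlat to 0.15 with median centring, 0.051 with spike-in scaling and 0.078 with G and C bins, Cs to -0.036 and Suclg2 to -0.028 with the percentile over probes well above background, and Suclg2 to -0.14 with G and C bins. Sdhc passed the threshold under 6 alternatives, Mdh2 under 6, Idh3a under 4 and Hk1 under 3, while Sdhd, Pdha1, Pdhb and Sucla2 each missed it under 2 and Dlst and Pfkl under 1. The cause of these changes was not tested. With no replicate block, 14 glycolytic and 10 TCA cycle enzymes were lower, with 4260 genes higher and 3999 lower, and Mdh2 passed (limma adjusted p = 0.0331).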

Other observations

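The pentose phosphate pathway, which branches from glycolysis and makes NADPH and ribose, held calls in both directions. Of 10 listed genes 9 were measured, with 3 higher (33.3%) and 4 lower (44.4%) with CPEB2 IgG, against 21.2% and 20.4% of all genes tested, and a median log2 fold change of -0.68. Rpia, which isomerises ribose-5-phosphate, had signals of 3717.5 and 4037 with CPEB2 IgG against 424 and 390.3 with control IgG, a log2 fold change of 3.30 (SE 0.23, limma adjusted p = 0.00543). H6pd, the glucose-6-phosphate dehydrogenase of the endoplasmic reticulum, had 2.36 (SE 0.25, limma adjusted p = 0.00556), and Rpe, an epimerase of the same branch, had 1.35 (SE 0.35, limma adjusted p = 0.0367). The cytosolic glucose-6-phosphate dehydrogenase G6pdx had -1.54 (SE 0.27, limma adjusted p = 0.0128), the lactonase Pgls had -2.65 (SE 0.33, limma adjusted p = 0.00663) and transketolase (Tkt) had -1.46 (SE 0.26, limma adjusted p = 0.0136). G6pd2 was not well above background with CPEB2 IgG and was at least 2.52-fold lower there than with control IgG, counted against the lowest signal well above background.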
